A study of Mus musculus with 6 samples.

Results

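The 44 genes described here encode the digestive proteins of the lysosome, its membrane and its proton pump. They were taken by symbol from a table of 21841 genes and fall into 4 classes, which are 10 genes of proteases and their inhibitor cystatin C, 13 hydrolases and luminal cofactors, 9 membrane proteins and 12 subunits of the vacuolar proton pump (V-ATPase) with its accessory subunits. All 44 were listed, and each had at least 1 count in some library. The RNA came from tumor-associated macrophages (TAMs) sorted for CD206 and LYVE-1, the phenotype of perivascular TAMs, from the spontaneous mammary tumors of MMTV-PyMT mice, and the question was what an inhibitor of heme oxygenase-1 (HO-1) changes in these cells. The strain was FVB/N-Tg(MMTV-PyVT)634Mul/J, in which the viral MMTV promoter drives the polyoma middle T oncogene in mammary epithelium, the genotype label was WT in all 6 mice, and the age of the mice was not given in the sources used here. There were 3 mice in the vehicle group and 3 in the KCL-HO-1i group, which received the inhibitor by intraperitoneal injection at 25 µmol/kg/day for 36 h. The sort collected 5000 cells for each condition, which does not say whether that number is per mouse or per group, and each library is 1 mouse.

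Lysosomes digest material that reaches them by endocytosis, phagocytosis and autophagy. The V-ATPase acidifies the lumen, which lets cathepsins and the acid hydrolases work, and heavily glycosylated membrane proteins such as LAMP-1 shield the membrane from them. Macrophages are rich in lysosomes because they clear dead cells, red blood cells and protein aggregates. The transcription factors TFEB and TFE3 are known to raise many lysosomal genes together by binding the CLEAR element, a palindromic sequence near their start sites.

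The letters of that element are shown because many lysosomal genes are known to carry it, though most of the windows read here did not hold its core. Only exact matches to the core were counted. A promoter window of 250 bases before to 50 bases after the start site was given by RefSeq (GRCm38.p6) for 37 of the 44 genes. RefSeq start sites can differ from the GENCODE gene positions used in the rest of the text. By the GENCODE positions, every match printed here but that of Atp6v0d1 lies inside its gene. The CLEAR core, TCACGTGA, was present in 6 of the 37 (16.2%) and in 304 of the 27025 genes with a promoter window (1.12%). The shorter E-box within it, CACGTG, which every core match also contains, was present in 12 of the 37 (32.4%) and in 2187 of the 27025 (8.09%). Both motifs read the same on either strand. The 7 matches to the core are printed on the strand of the gene, with the core in capitals.
Ctsa, chr2:164833749-164833778, plus strand, core starting 13 bases before the start site: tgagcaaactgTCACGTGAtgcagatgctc
Ctsa, chr2:164833766-164833795, plus strand, core starting at base 5 of the transcript: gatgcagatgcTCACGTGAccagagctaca
Ctsd, chr7:142387908-142387937, minus strand, core starting 99 bases before the start site: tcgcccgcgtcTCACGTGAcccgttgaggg
Mcoln1, chr8:3500462-3500491, plus strand, core starting 46 bases before the start site: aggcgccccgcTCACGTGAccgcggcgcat
Atp6v0d1, chr8:105566050-105566079, minus strand, core starting 4 bases before the start site: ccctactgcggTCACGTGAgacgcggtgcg
Atp6v1a, chr16:44139373-44139402, minus strand, core starting 132 bases before the start site: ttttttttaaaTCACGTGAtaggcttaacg
Atp6v0e, chr17:26676387-26676416, plus strand, core starting at base 3 of the transcript: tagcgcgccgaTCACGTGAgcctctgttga

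The genes with a core were 2 proteases, 1 membrane channel and 3 pump subunits, and their counts did not share a level. In the order vehicle replicates 1, 2 and 3, Ctsd had 17, 5 and 20 counts, and with KCL-HO-1i it had 46, 226 and 217. Mcoln1, the calcium channel of the lysosome, had 3 counts in vehicle replicate 3, 2 in KCL-HO-1i replicate 3 and 0 in the other 4 libraries. A match describes the letters of the window only.

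The libraries were shallow and unlike each other, and this touches every value that follows. Estimated counts, which are reads assigned to genes by Salmon and need not be whole, summed to between 206728 and 535224 per library, and the totals of the groups overlapped. Mitochondrial genes took 1.17% to 3.77% of the vehicle libraries and 9.68%, 2.45% and 41.8% of KCL-HO-1i replicates 1, 2 and 3. Against their labels, the vehicle libraries held few counts on macrophage genes. A list of 15 general macrophage genes, none of them among the 44, had 332, 70 and 160 counts with vehicle against 921, 2468 and 2274 with KCL-HO-1i, or 0.0325% to 0.161% and 0.425% to 0.772% of each library, and 1 of the 15 was at 0 in all vehicle libraries. The sort genes Ptprc, Adgre1, Mrc1 and Lyve1 summed to 0.00473% to 0.0198% and 0.0313% to 0.0572%. Hmox1, the gene of the drug's target, had 3, 0 and 11 counts with vehicle against 148, 316 and 293 with KCL-HO-1i. Olfactory and vomeronasal receptor genes, known mainly from another tissue, took 5.98% to 6.4% of vehicle libraries and 2.20% to 4.18% of KCL-HO-1i libraries. Marker lists of other cells went the other way or overlapped, with 0.0311% to 0.0348% against 0.00673% to 0.0360% for epithelial genes, 0.0288% to 0.0444% against 0.00990% to 0.0260% for endothelial genes and 0.0269% to 0.0299% against 0.00626% to 0.0118% for fibroblast genes. T cell genes took 0.0145% to 0.0227% against 0.00299% to 0.0115%, B cell genes 0.0190% to 0.0271% against 0.0136% to 0.0269%, neutrophil genes 0.00232% to 0.0106% against 0.000962% to 0.0106% and dendritic cell genes 0.0246% to 0.0396% against 0.00859% to 0.0245%, and Egfl7, Elane and Itgae were at 0 in all 6 libraries. In bulk RNA, fewer macrophages and less RNA per macrophage cannot be told apart, and the part of these differences in the results on lysosomal genes was not tested. Animal codes begin alike in all vehicle mice and differently in the KCL-HO-1i mice, so any batch tied to the codes and the drug cannot be told apart.

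Lysosomal genes took a larger share of every KCL-HO-1i library than of any vehicle library. The 44 genes together had 1013, 265 and 529 counts with vehicle against 2390, 4979 and 5485 with KCL-HO-1i. Their share was 0.490% (Wilson 95% interval 0.461% to 0.521%), 0.123% (0.109% to 0.139%) and 0.156% (0.144% to 0.170%) in vehicle replicates 1, 2 and 3. With KCL-HO-1i it was 1.15% (1.11% to 1.20%), 1.56% (1.51% to 1.60%) and 1.02% (0.998% to 1.05%). These intervals cover the counting error of reads within a library only, not the spread between mice. The reads carry no molecular identifiers, so copies of the same molecule may be counted more than once and the intervals may be too narrow. The lowest KCL-HO-1i share was above the highest vehicle share, and the spread between mice was larger than the counting error. Without mitochondrial genes in the total the shares were 0.509%, 0.124% and 0.159% against 1.27%, 1.60% and 1.76%.

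Gene by gene, most of the 44 had higher values after KCL-HO-1i when libraries were scaled by all genes, though not when they were scaled to macrophage genes, and none passed the test across all genes. A filter on low counts kept 36 of the 44 and 7263 genes in all, and the edgeR quasi-likelihood test, adjusted by Benjamini-Hochberg, called 0 of the 36 and 0 of the 7263 (0% of all genes tested), where a call needed an adjusted p under 0.05 and a log2 fold change beyond 0.6 in size. The adjusted p of the 36 ran from 0.218 to 0.992. At an unadjusted p under 0.05, 17 of the 36 were higher and 0 lower, which is 47.2% of those tested and 38.6% of the 44, against 5.01% higher and 3.06% lower over all genes tested. Their log2 fold changes (KCL-HO-1i over vehicle) ran from -0.73 to 5.43, with 31 above 0, 5 below and a median of 2.23, whereas the median over all genes tested was -0.52. Since a gene near the filter could pass through the group in which it was high, the count was repeated without the filter, and there 35 of the 44 were higher and 9 lower, with a median of 2.30. In CPM, counts per 1000000 of a library total adjusted by the TMM method, all KCL-HO-1i libraries were above all vehicle libraries for 26 of the 44 (59.1%) and below them for 1 (2.27%). Over all genes listed the shares were 3.48% above and 11.7% below, and over the genes tested 7.88% were above. Leaving out each library in turn gave medians of 1.95 to 3.59 and between 26 and 32 genes above, where 4.13% to 7.43% of all genes listed were above in the same settings. The highest median was the one without vehicle replicate 1. Without KCL-HO-1i replicate 3, the library with the most mitochondrial counts, the median was 2.58 and 26 genes were above.

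**Figure D1:**
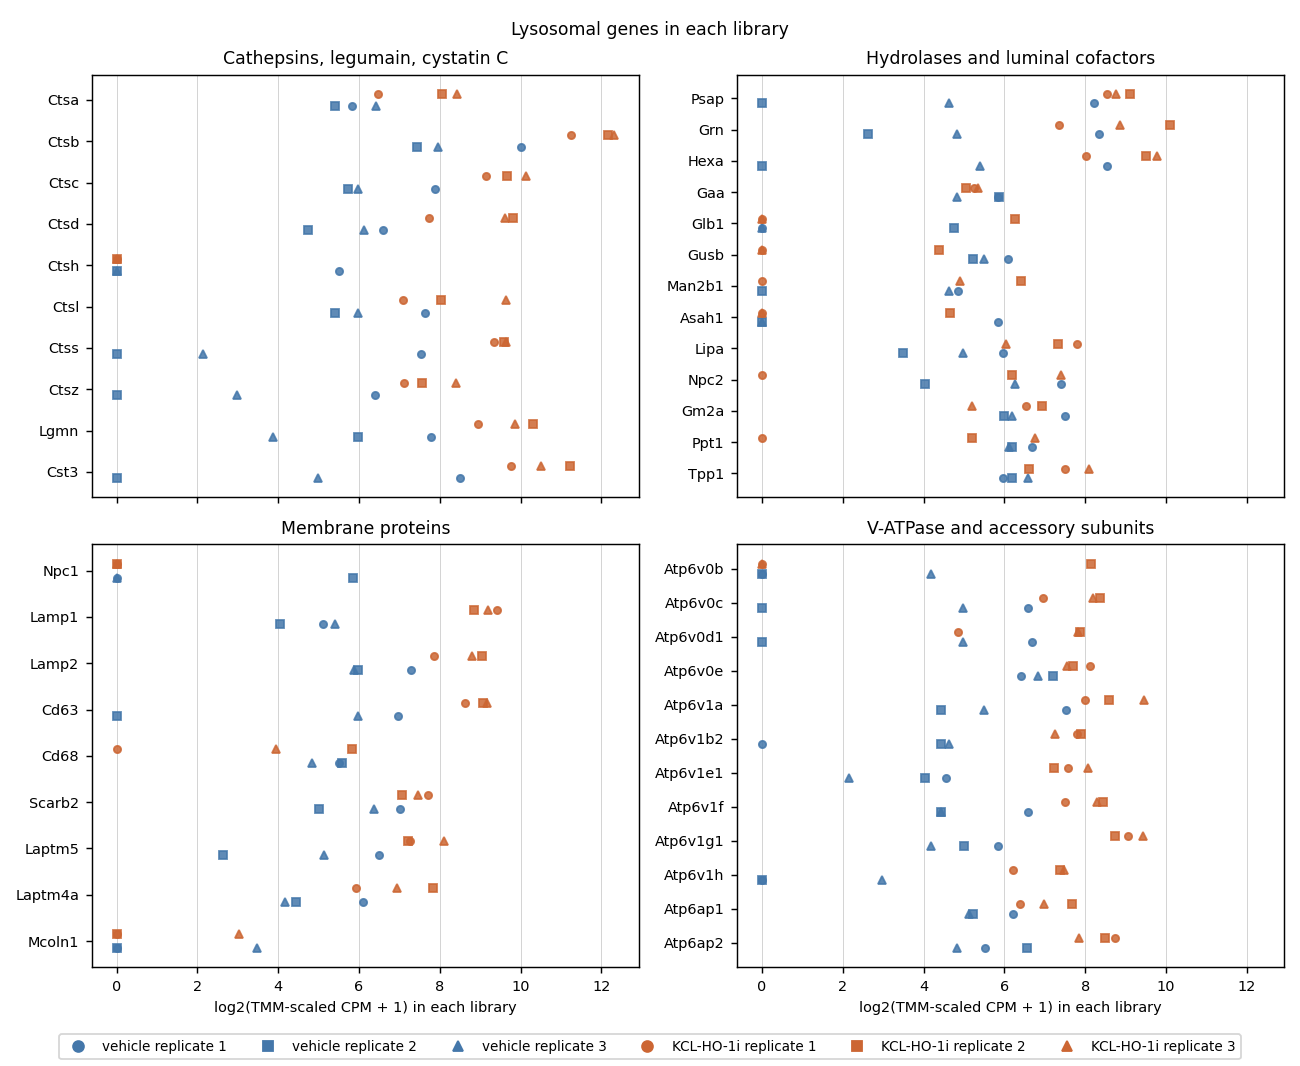
Level of each of the 44 lysosomal genes in each of the 6 libraries, as log2 of TMM-scaled CPM plus 1, with vehicle in blue and KCL-HO-1i in orange, a different marker shape for each replicate, and 1 panel for each class. On this scale the KCL-HO-1i points lie to the right of all vehicle points for 26 of the 44 genes, and vehicle replicate 1 (blue circles) is often nearest to them.

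Other ways to test the same counts called between 0 and 20 of the lysosomal genes, all higher with KCL-HO-1i when libraries were scaled by all genes. DESeq2, the tool named in the study's methods, called 5 without a filter, against 0.523% of all genes called higher, and 9 on the filtered genes, against 2.26%. The 5 were Ctsd, Lamp1, Atp6v1e1, Atp6v1g1 and Atp6v1h, and the 9 also included Ctsb, Ctsc, Lgmn and Atp6v1b2. Limma voom with sample quality weights called 20, against 4.03% of all genes. EdgeR called 1 without the filter, Lamp1, against 0.359%, and 3 of the 6 that had at least 10 counts in every sample (Ctsb, Ctsc and Lamp2), against 6.43%. Without vehicle replicate 1, which had the most lysosomal counts of its group, edgeR called Ctsb, Ctss and Cst3, against 0.731% of all genes called higher. Genes are named here because these tools called them, so some of these names were chosen after their values were seen.

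The proteases held the most counts of the 4 classes in every library. Of the 10 genes, 9 were tested and all 9 were higher with KCL-HO-1i under TMM scaling (5 of 9 when libraries were scaled to macrophage genes, as described further on), with log2 fold changes of 1.91 to 3.61 and a median of 3.07. An unadjusted p under 0.05 was reached by 7 of the 9, where 5.01% of all genes tested were higher at that p. For 8 of the 10 all KCL-HO-1i libraries were above all vehicle libraries, against 3.48% of all genes listed. As a class the proteases took 0.216%, 0.0352% and 0.05% of the vehicle libraries against 0.582%, 0.893% and 0.606% of the KCL-HO-1i libraries.

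Ctsb (chr14:63122462-63145923, plus strand, mm10) encodes cathepsin B, a cysteine protease that cuts both inside proteins and at their ends. It had the most counts of the 44 genes in every library, with 183, 33 and 72 with vehicle against 528, 1138 and 1418 with KCL-HO-1i. All treated mice were above all vehicle mice, and vehicle replicate 1 had more than the sum of its group's other two. In TMM-scaled CPM the means were 480 ± 472 and 4023 ± 1403 (SD, n = 3 mice each), a log2 fold change of 3.07 ± 1.00 (SE) with an adjusted p of 0.349 in edgeR. Without vehicle replicate 1 the log2 fold change was 4.55, with an adjusted p of 0.0440 in edgeR. Without vehicle replicate 2 or 3 instead it was 2.89 or 2.96, with an adjusted p of 0.709 or 0.933.

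Cst3 (chr2:148871722-148875692, minus strand) encodes cystatin C, a secreted inhibitor of cysteine cathepsins, and so differs in role from the rest of its class. Its counts were 64, 0 and 9 with vehicle against 189, 601 and 406 with KCL-HO-1i. Vehicle replicate 2 had none, and the groups did not overlap. The means were 129 ± 198 and 1576 ± 772 TMM-scaled CPM, with a log2 fold change of 3.61 ± 1.41 and an adjusted p of 0.508 in edgeR. Leaving out vehicle replicate 1 moved the log2 fold change to 6.81, with an adjusted p of 0.0427. Leaving out vehicle replicate 2 instead gave 3.24 with an adjusted p of 0.665 in edgeR. Leaving out vehicle replicate 3 gave 3.33, also not called.

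Ctss (chr3:95526786-95556403, plus strand) encodes cathepsin S, which trims the invariant chain from MHC class II molecules and stays active at neutral pH. It had 33, 0 and 1 counts with vehicle against 140, 192 and 221 with KCL-HO-1i. Nearly all of the vehicle counts were in replicate 1. The means were 62.6 ± 106 and 735 ± 79.0 TMM-scaled CPM, with a log2 fold change of 3.57 ± 1.41 and an adjusted p of 0.515 in edgeR. The fold change ran from 3.18 to 8.45 when each library was left out in turn, and the highest value, with an adjusted p of 0.0308, was the one without vehicle replicate 1. Without vehicle replicate 2 or 3 instead, the adjusted p was 0.772 or 0.994 in edgeR.

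Legumain and cathepsin C each process other enzymes. Lgmn (chr12:102394084-102439813, minus strand) encodes legumain, which cuts after asparagine and matures several cathepsins, and it had 39, 12 and 4 counts with vehicle against 106, 317 and 259 with KCL-HO-1i. Ctsc (chr7:88278085-88310888, plus strand) encodes cathepsin C, which activates granule serine proteases, and it had 42, 10 and 18 counts against 123, 203 and 312. Neither gene overlapped between the groups. Their log2 fold changes were 3.20 ± 1.03 for Lgmn and 2.85 ± 0.88 for Ctsc, with adjusted p of 0.344 and 0.322 in edgeR.

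Among the other proteases, Ctsd, Ctsz, Ctsa and Ctsl were all higher by edgeR's estimate but did not pass. Ctsd (cathepsin D, an aspartic protease) had a log2 fold change of 3.31 ± 0.91, and its reads may be split with Gm49369, whose exons overlap it on the same strand. Ctsl (cathepsin L) was the tested gene of the class whose groups overlapped, with 35, 8 and 18 counts with vehicle against 29, 65 and 221 with KCL-HO-1i. Ctsh was the gene of the class that was not tested, with 8 counts in vehicle replicate 1 and 0 in the other 5 libraries. A floor of 3 counts over the KCL-HO-1i group makes it 2.99-fold lower there, but this rests on 1 library and the groups overlapped. In no library did Ctsh exceed the 97.5th percentile of olfactory and vomeronasal receptor genes in counts per kb (described further on).

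The hydrolases and luminal cofactors were the class with the smallest median fold change. Of the 13 genes, 9 were tested, with 5 higher and 4 lower under TMM scaling (0 of 9 higher when scaled to macrophage genes), a median log2 fold change of 1.25 and a range of -0.73 to 2.29. At an unadjusted p under 0.05 edgeR had 0 in either direction, while limma voom called 3 (Psap, Grn and Hexa), against 4.03% of all genes called higher. KCL-HO-1i was above vehicle in all libraries for 3 of the 13 (Psap, Lipa and Tpp1) and below for 1 (Gusb). Over all genes listed 3.48% were above and 11.7% below. The share of the library on the hydrolases was 0.153%, 0.0320% and 0.0458% with vehicle against 0.138%, 0.242% and 0.130% with KCL-HO-1i, so the groups overlapped.

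The genes with the most counts in this class were Hexa, Grn and Psap. Hexa (chr9:59539540-59565109, plus strand) encodes the alpha subunit of beta-hexosaminidase, which degrades the ganglioside GM2, and had 67, 0 and 12 counts with vehicle against 56, 180 and 246 with KCL-HO-1i. Grn (chr11:102430315-102437048, plus strand) encodes progranulin, a secreted protein whose granulin fragments act in the lysosome, and had 58, 1 and 8 counts against 35, 276 and 130. In both genes vehicle replicate 1 lay above KCL-HO-1i replicate 1, and vehicle replicate 2 had at most 1 count. Psap (chr10:60277627-60302597, plus strand) encodes prosaposin, the precursor of the saposins that present lipids to hydrolases, and had 53, 0 and 7 counts against 81, 138 and 120. The log2 fold changes were 2.17 ± 1.32 for Hexa, 2.29 ± 1.26 for Grn and 2.09 ± 1.28 for Psap, with adjusted p of 0.792, 0.750 and 0.798 in edgeR. Without vehicle replicate 1 they were 5.10, 5.33 and 5.35 and still not called, with adjusted p of 0.133, 0.0805 and 0.0873.

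Tpp1 (chr7:105744811-105752235, minus strand) encodes tripeptidyl peptidase 1, a serine protease lost in a childhood form of neuronal ceroid lipofuscinosis. Its counts were 11, 14 and 28 with vehicle against 39, 24 and 76 with KCL-HO-1i. On the TMM scale it stood at 76.5 ± 17.4 CPM with vehicle and 183 ± 88.5 CPM with KCL-HO-1i. The log2 fold change was 1.25 ± 0.84 with an adjusted p of 0.830 in edgeR. Its vehicle level was low, since it exceeded the 97.5th percentile of receptor genes in no vehicle library.

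Several hydrolases had similar or fewer counts with KCL-HO-1i, and these genes are named because their values were seen. Gaa (acid alpha-glucosidase, which breaks down glycogen) had 10, 11 and 8 counts with vehicle against 8, 8 and 11 with KCL-HO-1i. Gm2a (the GM2 activator, cofactor of the hexosaminidase) had 32, 12 and 21 against 20, 30 and 10. Ppt1 (palmitoyl-protein thioesterase 1) had 18, 14 and 20 against 0, 9 and 30. The cholesterol carrier Npc2 belonged with them, and the log2 fold changes of the 4 were -0.36 ± 1.20, -0.33 ± 0.97, -0.73 ± 1.34 and -0.09 ± 1.39 in the order Gaa, Gm2a, Ppt1 and Npc2. Each of these standard errors is larger than the difference it belongs to. Gusb (beta-glucuronidase) was left out by the filter, with 12, 7 and 13 counts against 0, 5 and 0, and it was the 1 gene of the 44 with all vehicle libraries above all KCL-HO-1i libraries (exact permutation p = 0.1, two-sided, the smallest that 3 against 3 allows). Glb1, Man2b1 and Asah1 also did not pass, with at most 10 counts in a vehicle library and 21 in a KCL-HO-1i library, and Glb1 shares exons on its strand with Tmppe.

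**Figure D2:**
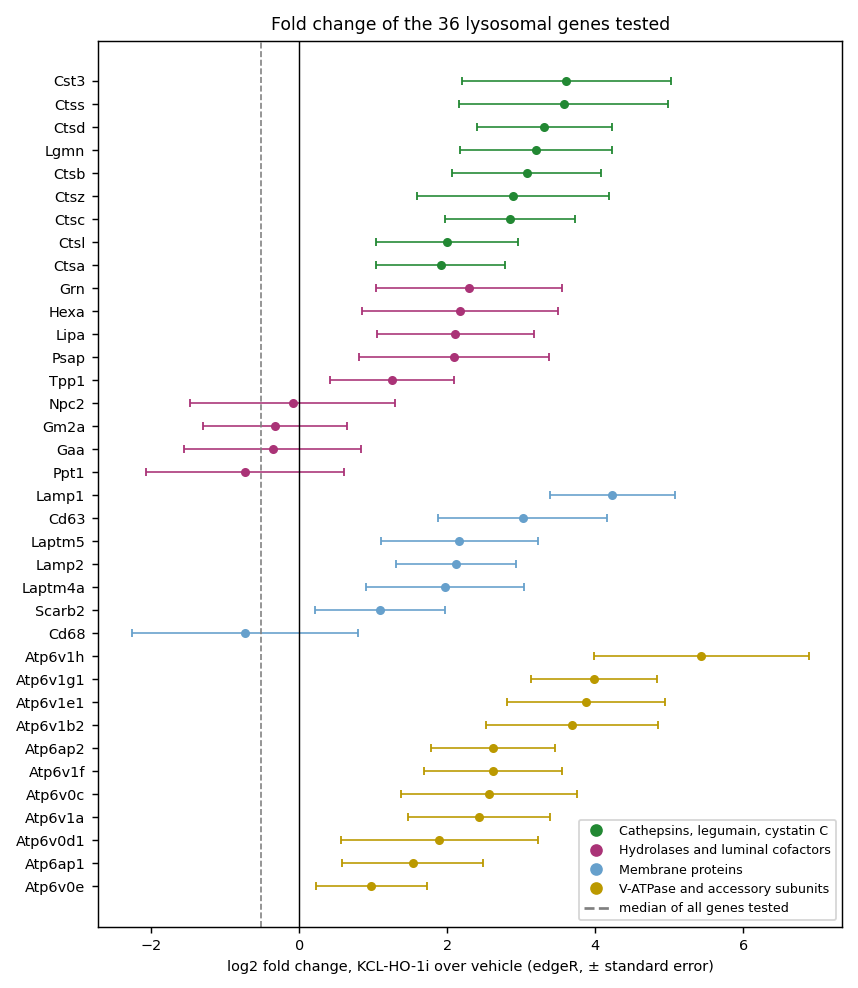
Log2 fold change (KCL-HO-1i over vehicle, with 3 mice in each group) of the 36 lysosomal genes tested, from edgeR's quasi-likelihood test, with bars of 1 standard error, colors for the 4 classes and a dashed line at the median of all genes tested (-0.52). With this TMM scaling all 9 proteases and all 11 V-ATPase genes lie to the right of 0 (5 and 3 of them do when scaled to macrophage genes), and the 5 genes to the left of it are 4 hydrolases and Cd68.

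The membrane proteins held the gene with the smallest p of the 44. Of 9 genes, 7 were tested, with 6 higher and 1 lower under TMM scaling (2 of 7 higher when scaled to macrophage genes) and a median log2 fold change of 2.12. An unadjusted p under 0.05 was reached by 3 of the 7, where 5.01% of all genes tested were higher at that p. For 5 of the 9 all KCL-HO-1i libraries were above all vehicle libraries, against 3.48% of all genes listed. The class took 0.0556%, 0.0213% and 0.0287% of the vehicle libraries against 0.180%, 0.163% and 0.114% of the KCL-HO-1i libraries.

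Lamp1 (chr8:13159161-13175338, plus strand) encodes LAMP-1, a major glycoprotein of the lysosomal membrane. It had 6, 3 and 12 counts with vehicle against 148, 115 and 163 with KCL-HO-1i. The groups were far apart and the mice within each were close, at 30.0 ± 13.1 and 575 ± 112 TMM-scaled CPM. The log2 fold change was 4.23 ± 0.84 with an adjusted p of 0.218 in edgeR, where the unadjusted p was 0.000360. DESeq2 without a filter gave an adjusted p of 0.00230 and limma voom 0.00665, and leaving out each library in turn gave log2 fold changes of 4.14 to 4.73. Its exons overlap those of Grtp1 on the other strand, and the sources used here do not give the strand setting of the counting.

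Lamp2 and Cd63 were also higher in every KCL-HO-1i library. Lamp2 (chrX:38401357-38456454, minus strand) encodes LAMP-2, which also serves as the receptor of chaperone-mediated autophagy in its A form, and it had 28, 12 and 17 counts with vehicle against 50, 132 and 123 with KCL-HO-1i. Cd63 (chr10:128900989-128912822, plus strand) encodes a tetraspanin of late endosomes, lysosomes and exosomes, and it had 22, 0 and 18 counts against 86, 134 and 159. The log2 fold changes were 2.12 ± 0.81 for Lamp2 and 3.02 ± 1.14 for Cd63, with adjusted p of 0.495 and 0.481 in edgeR. Scarb2 (chr5:92441314-92506833, minus strand) encodes LIMP-2, which carries glucocerebrosidase to the lysosome. It had 23, 6 and 24 counts against 45, 33 and 49, without overlap, and its log2 fold change was 1.09 ± 0.88 with an adjusted p of 0.879 in edgeR.

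Cd68, although widely used as a macrophage marker, did not follow the other membrane genes. It had 8, 9 and 8 counts with vehicle against 0, 14 and 4 with KCL-HO-1i, with a log2 fold change of -0.73 ± 1.53 and an adjusted p of 0.944 in edgeR. The count of 0 in KCL-HO-1i replicate 1 stands beside 921 counts on the 15 general macrophage genes in the same library. Npc1, the cholesterol exporter of the lysosomal membrane, was not tested, with 11 counts in vehicle replicate 2 and 0 elsewhere. A floor of 3 counts over the KCL-HO-1i group makes it 4.11-fold lower there, but this rests on 1 library and the groups overlapped. In no library did Npc1 exceed the 97.5th percentile of receptor genes in counts per kb.

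For the V-ATPase, the vehicle and KCL-HO-1i libraries were apart in most genes. Of 12 genes, 11 were tested and all 11 were higher with KCL-HO-1i under TMM scaling (3 of 11 when scaled to macrophage genes), with a median log2 fold change of 2.62 and a range of 0.97 to 5.43. An unadjusted p under 0.05 was reached by 7 of the 11, where 5.01% of all genes tested were higher at that p. For 10 of the 12 all KCL-HO-1i libraries were above all vehicle libraries, against 3.48% of all genes listed. The class took 0.0653%, 0.0343% and 0.0319% of the vehicle libraries against 0.249%, 0.259% and 0.175% of the KCL-HO-1i libraries.

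The pump has a cytosolic V1 sector that splits ATP and a membrane V0 sector that moves protons. The 6 genes of V1 had log2 fold changes of 2.43 to 5.43 with a median of 3.78, all 6 with an unadjusted p under 0.05 and groups that did not overlap. The 4 genes of V0 had 3 tested, with log2 fold changes of 0.97 to 2.56 and a median of 1.89, 0 at that p and 2 whose groups did not overlap. Over all genes tested 5.01% were higher at that p. Over all genes listed 3.48% had all KCL-HO-1i libraries above all vehicle libraries. Dividing the pump this way was decided with the values known, and the difference between the sectors was not tested.

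In the V1 sector, Atp6v1g1 (chr4:63544772-63550750, plus strand) encodes a subunit of the stalk that joins the sectors. It had 10, 6 and 5 counts with vehicle against 115, 106 and 191 with KCL-HO-1i. The separation resembled that of Lamp1, at 34.7 ± 19.7 and 546 ± 132 TMM-scaled CPM, and the log2 fold change was 3.98 ± 0.85 with an adjusted p of 0.218 in edgeR and 0.00574 in DESeq2 without a filter. Atp6v1h (chr1:5070018-5162529, plus strand) encodes the regulatory H subunit and had 0, 0 and 2 counts against 16, 41 and 49. Its fitted log2 fold change of 5.43 ± 1.45 is the largest of the 44 but rests on 2 vehicle counts against 106, a ratio of 47.3 with a counting interval of 12.8 to 395 (exact, 95%), and its adjusted p was 0.296 in edgeR and 0.0349 in DESeq2 without a filter. Atp6v1a (chr16:44085402-44139705, minus strand), whose promoter carries a CLEAR core, encodes the subunit that binds and splits ATP. It had 33, 4 and 13 counts against 55, 96 and 196, with a log2 fold change of 2.43 ± 0.96 and an adjusted p of 0.515 in edgeR.

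Outside V1 the log2 fold changes of the genes tested were 0.97 to 2.62. Atp6v0e (chr17:26663231-26699647, plus strand), a small V0 subunit with a CLEAR core, had 15, 28 and 33 counts with vehicle against 60, 52 and 52 with KCL-HO-1i. Its groups did not overlap, and it had the smallest fold change of the class, 0.97 ± 0.75 on the log2 scale with an adjusted p of 0.870 in edgeR. Atp6v0d1, also with a core, had 18, 0 and 9 counts against 6, 58 and 63, so its groups overlapped. Atp6v0b was not tested, with 5 counts in vehicle replicate 3, 70 in KCL-HO-1i replicate 2 and 0 in the other 4 libraries. Atp6ap2 (chrX:12587801-12617049, plus strand) encodes the accessory subunit also known as the prorenin receptor, and had 8, 18 and 8 counts against 93, 90 and 64. Its log2 fold change was 2.62 ± 0.84 with an adjusted p of 0.338 in edgeR.

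Within the lysosomal counts of a library, the balance of the classes differed between the groups. Proteases made up 44%, 28.7% and 31.9% of the counts on the 44 genes with vehicle, against 50.6%, 57.3% and 59.1% with KCL-HO-1i (34.9% ± 8.07 and 55.7% ± 4.48, SD, n = 3). Hydrolases made up 31.3%, 26.0% and 29.3% against 12.0%, 15.5% and 12.7% (28.9% ± 2.68 and 13.4% ± 1.85). Neither class overlapped between the groups. The membrane and V-ATPase genes did overlap, at 11.4% to 18.3% against 10.5% to 15.7% and 13.3% to 27.9% against 16.6% to 21.7%. Ctsb alone supplied 12.5% to 18.1% of the lysosomal counts with vehicle and 22.1% to 25.9% with KCL-HO-1i. These percentages come from 265 to 1013 counts per library with vehicle, and a share within a fixed total of 100% falls in a class when it rises in another. In vehicle replicates 1, 2 and 3 only 14, 0 and 2 of the 44 genes exceeded the 97.5th percentile of receptor genes (described further on). The balance in vehicle replicates 2 and 3 is thus mostly that of genes within the receptor range. The part of this in the difference between the groups was not tested.

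**Figure D3:**
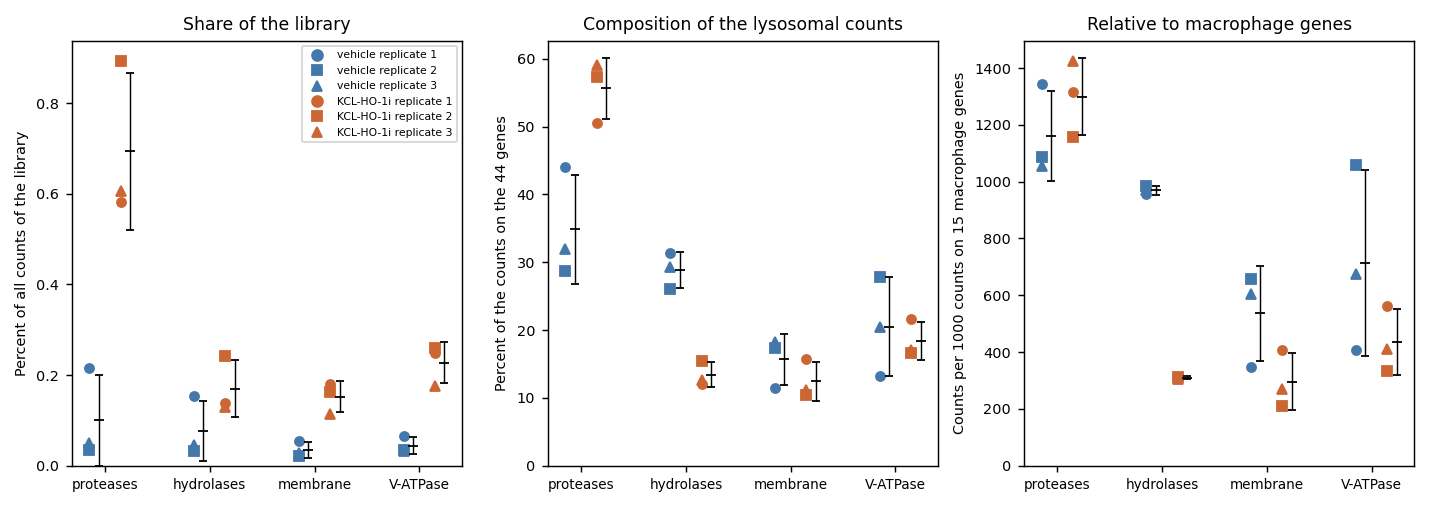
Counts of the 4 classes in each library as a percent of the library (left), as a percent of the counts on the 44 lysosomal genes (middle) and per 1000 counts on 15 general macrophage genes (right), with vehicle in blue, KCL-HO-1i in orange and the mean and SD of 3 mice beside each group. Each class but the hydrolases took a larger share of every KCL-HO-1i library than of any vehicle library, whereas relative to macrophage genes the hydrolases stand at 955 to 986 with vehicle and 306 to 314 with KCL-HO-1i. In vehicle replicates 2 and 3, 0 hydrolases exceeded the 97.5th percentile of olfactory and vomeronasal receptor genes in counts per kb. The vehicle denominators on the right are only 332, 70 and 160 counts. With that scaling the median log2 fold change was -2.24 for hydrolases and -4.06 over all genes tested.

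Compared per length, cystatin C and cathepsin B had the highest levels of the 44 in every KCL-HO-1i library, but among the vehicle libraries only in replicate 1. Levels per kb were counts divided by the longest coding transcript of the gene and rescaled to sum to 1000000 over all genes of a library. Cst3 stood at 306 ± 467 with vehicle and 2094 ± 1288 with KCL-HO-1i on this scale, and Ctsb at 207 ± 200 and 912 ± 280 (SD, n = 3). With KCL-HO-1i the next levels were Ctss at 627 ± 237, Atp6v1g1 at 544 ± 220, Cd63 at 510 ± 169 and Lgmn at 502 ± 270, and these neighbors did not differ beyond their spread. With vehicle the next were Hexa at 141 ± 208, Atp6v1f at 115 ± 107 and Cd63 at 114 ± 112, where the SD was about as large as the mean or larger. The vehicle means rest largely on replicate 1, since Cst3 stood at 843, 0 and 75.1 and Ctsb at 437, 74.5 and 109 in replicates 1, 2 and 3. Atp6v0e was highest in replicate 2 at 107 and Cd63 in replicate 3 at 117.

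Since counts were few, each gene was also set against a background of receptor genes with few counts per kb. The 1474 olfactory and vomeronasal receptor genes with a known length gave, in each library, a distribution of counts per kb, and its 97.5th percentile was between 7.84 and 12.0. Above that level were 14, 0 and 2 of the 44 lysosomal genes in vehicle replicates 1, 2 and 3, against 23, 32 and 31 in KCL-HO-1i replicates 1, 2 and 3. None exceeded it in all vehicle libraries, and 22 did so in all KCL-HO-1i libraries, of which 7 were proteases, 3 hydrolases (Grn, Hexa and Psap), 4 membrane proteins (Cd63, Lamp1, Lamp2 and Laptm5) and 8 V-ATPase genes. With KCL-HO-1i, 9 genes exceeded it in no library, and 5 of them were hydrolases (Asah1, Gaa, Gm2a, Gusb and Man2b1), beside Ctsh, Mcoln1, Npc1 and Scarb2. With vehicle, 30 exceeded it in no library, so for these a fold change is set against a vehicle level within the range of the receptor genes. At the 95th percentile the counts of genes were 20, 1 and 4 against 25, 35 and 32, and at the 99th percentile 11, 0 and 2 against 19, 31 and 28, so the order of the groups was kept. These percentiles were chosen after the data had been seen.

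**Figure D4:**
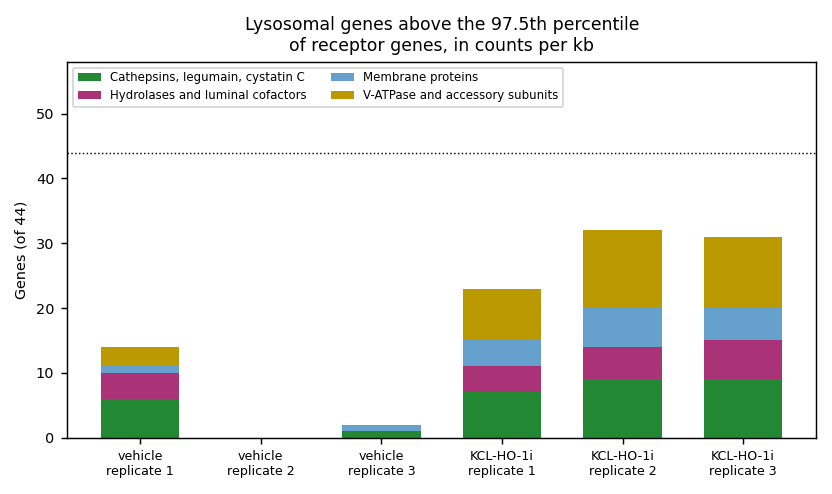
Number of the 44 lysosomal genes, stacked by class, whose counts per kb exceed the 97.5th percentile of 1474 olfactory and vomeronasal receptor genes in the same library, with a dotted line at 44. The vehicle libraries have 14, 0 and 2 such genes and the KCL-HO-1i libraries 23, 32 and 31.

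The direction of most lysosomal genes depended on what the libraries were scaled to. Relative to 1000 counts on the 15 general macrophage genes, the 44 genes had 3051, 3786 and 3306 counts with vehicle against 2595, 2017 and 2412 with KCL-HO-1i, so here the vehicle libraries were all higher. The proteases were at 1343, 1086 and 1056 against 1314, 1157 and 1426, which overlap. The hydrolases were at 955, 986 and 969 against 312, 314 and 306, and the groups did not overlap. Membrane genes were at 346, 657 and 606 against 407, 212 and 269, and V-ATPase genes at 407, 1057 and 675 against 562, 335 and 411. When edgeR was run with libraries scaled to the macrophage genes, the median log2 fold change was -4.06 over all genes tested and -0.35 over the 36 lysosomal genes, and 10 of the 36 were above 0. Relative to the median of all genes the lysosomal genes were then 3.71 higher, against 2.75 higher with TMM. By class the medians were 0.17 for proteases, -2.24 for hydrolases, -1.15 for membrane proteins and -0.33 for V-ATPase genes. The genes called under this scaling were Gaa, Ppt1 and Cd68, all lower, in a fit that called 66.1% of all genes lower. With vehicle the denominator is only 332, 70 and 160 counts. Of the 13 hydrolases, 4, 0 and 0 exceeded the 97.5th percentile of the receptor genes in vehicle replicates 1, 2 and 3. With KCL-HO-1i 4, 5 and 6 did. The hydrolase counts of vehicle replicates 2 and 3 were thus all on genes within the receptor range, and the part of this in the hydrolase difference was not tested.

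**Figure D5:**
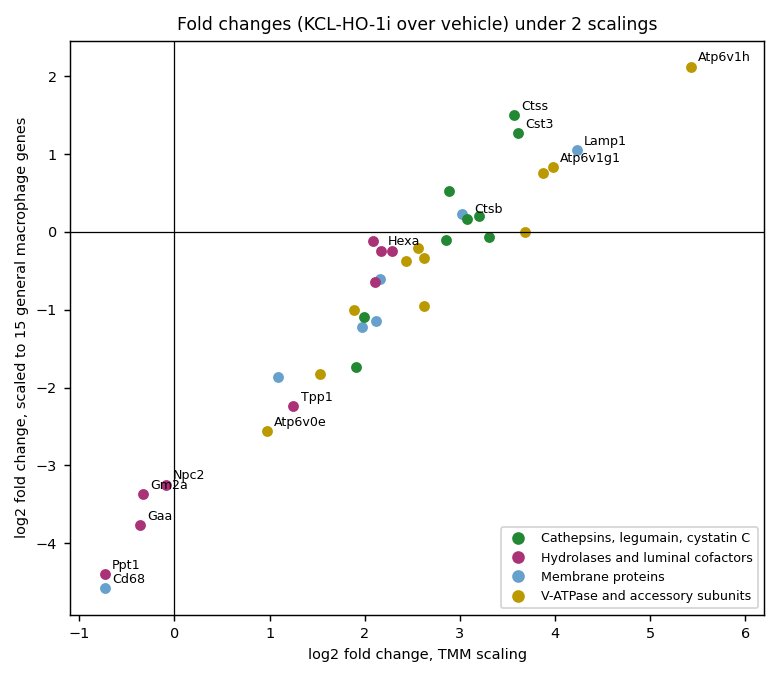
Log2 fold change (KCL-HO-1i over vehicle) of the 36 lysosomal genes tested with TMM scaling (horizontal) and with libraries scaled to 15 general macrophage genes (vertical), 1 point for each gene, colored by class. Of these genes 31 lie above 0 on the horizontal axis and 10 on the vertical axis, where Atp6v1h, Ctss, Cst3 and Lamp1 are highest and Cd68 and Ppt1 lowest.

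A list of 90 further lysosomal genes (other proteases, hydrolases, membrane proteins, pump subunits and genes of lysosomal sorting and transcription) was read in the same fit. Of these, 84 had a count in some library and 28 were tested. Under TMM scaling 22 were higher and 6 lower, with a median log2 fold change of 1.10 and 0 called by edgeR. DESeq2 without a filter called 1, against 0.523% of all genes called higher, and limma voom 5, against 4.03%. When scaled to macrophage genes, 5 of the 28 were higher, with a median of -2.31. There 5 were called, all lower, in a fit that called 66.1% of all genes lower. At an unadjusted p under 0.05, 5 of the 28 (17.9%) were higher and 0 lower, against 5.01% and 3.06% of all genes tested. For 8 of the 90 (8.89%) the KCL-HO-1i libraries were above all vehicle libraries and for 7 (7.78%) they were below, against 3.48% and 11.7% of all genes listed. Without the filter 50 of the 84 were higher and 34 lower, with a median of 0.53. The difference between the 2 lists was not tested.

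The clearest of these genes was another V1 subunit, though the 13 further pump genes went both ways. All KCL-HO-1i libraries were above all vehicle libraries for 1 of the 13 and below for 2, against 3.48% and 11.7% of all genes listed. Without the filter 5 were higher and 8 lower, with a median log2 fold change of -0.47. Atp6v1c1, which encodes subunit C at the base of the stalk, had 0, 0 and 3 counts with vehicle against 45, 41 and 38 with KCL-HO-1i, with an adjusted p of 0.293 in edgeR and 0.0199 in DESeq2 without a filter. Its 3 vehicle counts are at the detection floor. Atp6v1d, the central shaft of the pump, had 21, 4 and 6 counts against 46, 13 and 21, and these overlapped on the TMM scale. Cstb, which encodes cystatin B, an inhibitor of cathepsins inside the cell, had 41, 0 and 7 counts against 28, 425 and 322, so KCL-HO-1i replicate 1 lay within the vehicle range.

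The other genes with the most counts in their groups gave a mixed picture. Ctso, a further cathepsin, had 7, 20 and 15 counts against 65, 2 and 31. Of the hydrolases, Arsb (arylsulfatase B) had 9, 1 and 9 counts against 26, 13 and 152, and Ids (iduronate 2-sulfatase) had 23, 0 and 12 against 35, 7 and 73. Only Arsb of this pair separated the groups on the TMM scale. Among membrane proteins, Cd164 (endolyn) had 20, 22 and 19 counts against 59, 39 and 57, and Litaf, which acts in endosomal sorting, had 32, 2 and 13 against 35, 186 and 105. Rab7, the small GTPase of late endosomes, had 11, 12 and 11 counts against 11, 54 and 64. Lamtor5, of the Ragulator complex that anchors mTORC1 to the lysosome, had 8, 0 and 0 against 26, 35 and 52. The log2 fold changes of Ctso, Arsb, Ids, Cd164, Litaf, Rab7 and Lamtor5 were 1.10, 3.04, 1.41, 1.12, 2.46, 1.62 and 3.34, with adjusted p of 0.495 to 0.923 in edgeR.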

How the data were processed

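RNA of sorted TAMs was sequenced from 6 mice after a directional NEBNext kit. According to the methods and the submitters' processing notes, the authors checked reads with FastQC 0.11.9, aligned them with STAR 2.7.9a (build mm10), quantified them with Salmon 1.9.0 and summed transcripts to genes with tximport. The authors deposited estimated counts per gene. The methods call them TPM counts, but library totals differ (206728 to 535224), so they were treated as estimated counts and rounded. Low depth limits precision: 1 count is a large step for most of these genes. All columns matched a sample (0 without).

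Genes were filtered with filterByExpr (minimum count 10, total 15), normalized with TMM and tested with the edgeR 4.0.16 quasi-likelihood test in R 4.3.3, without covariates, adjusted over all genes tested. P-values measure the spread between 3 mice in each group. DESeq2 1.42.0 and limma 3.58.1 were alternatives, beside other scalings, filters, thinning, the replicate number as a block and each mouse left out. Class shares had Wilson 95% intervals. Gene positions and lengths came from GENCODE M21 (length for 99% of genes), which may not be the authors' annotation, and promoters from RefSeq. Of the 44 genes, 20 have a non-whole count in some library, 2 share exons with a gene on the same strand and 10 with a gene on the other strand, so reads may be split between neighbors there.

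The members and lists were chosen with earlier results of these data known. In each class the 4 genes with the highest mean share of the library and the 2 with the largest fold change among those tested were named (18 in all), with the 2 highest in each class of further lysosomal genes, each gene not tested, and Hmox1. Any other gene named was chosen after its values were seen.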

Additional observations from a re-analysis of the deposited data

How the results depend on the processing

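With other settings (DESeq2's size factors in edgeR, library totals, no mitochondrial genes, thinning to the smallest library, no fold change cutoff, the replicate number as a block, and each library but vehicle replicate 1 left out) 0 genes were called by edgeR, as in the report. Over all genes, DESeq2 called 165 without a filter and 236 with it, limma voom 299, edgeR 82 without a filter, 67 with at least 10 counts in every sample and 4813 (9 higher, 4804 lower) when scaled to the macrophage genes, and leaving out 1 library gave 0 to 74. Of the lysosomal genes these called 5, 9, 20, 1, 3 and 3, and leaving out 1 library gave 0 to 3. Of the 90 further lysosomal genes they called 1, 1, 5, 0, 1 and 5, the last 5 all lower. The calls without vehicle replicate 1 rest on 2 vehicle libraries, and the cause of the other differences was not tested.

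The median log2 fold change of the lysosomal genes was 2.23, 3.11 with limma voom, 1.95 to 3.59 with 1 library left out, and reversed to -0.35 when scaled to the macrophage genes. That scaling also reversed 10 of the 18 genes named by rule, to -0.11 for Ctsc, -0.12 for Psap, -0.25 for Grn, -0.24 for Hexa, -2.24 for Tpp1, -1.15 for Lamp2, -1.87 for Scarb2, -2.56 for Atp6v0e, -0.38 for Atp6v1a and -0.95 for Atp6ap2. The other 8 and every other alternative kept the direction of the 18, where the filter left them. Replicate numbers did not pair the mice (correlations of same-numbered deviations -0.00263, 0.0550 and -0.0326, and 1 of 3 libraries closest to its own number), and the replicate block gave a median of 2.95 and 0 calls. Depth limits every value here, since 265 to 1013 counts fell on the 44 genes in a vehicle library.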
